A study of Arabidopsis thaliana with 12 samples.

Results

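The peaks described here were called in chromatin immunoprecipitation of a tagged form of the transcription factor BRC1 (BRANCHED1). Binding itself was not tested further here. Of 4227 peaks in the deposited list, 627 lie inside gene loci of Arabidopsis thaliana. They were chosen by position alone: the midpoint of the peak had to lie inside a locus that the deposited Cufflinks tables place on chromosomes 1 to 5. They make up 14.8% of the list. A further 1839 peaks (43.5%) had their midpoint 1 to 500 bp from the nearest locus, 718 (17%) at 501 to 1000 bp, and 1043 (24.7%) beyond 1000 bp.

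The series has 12 samples in 4 groups of 3. RNA was sequenced from GFP:BRC1ind seedlings, in which estradiol switches on a fusion of BRC1 to green fluorescent protein (the induced line), and from brc1-2 seedlings, which lack BRC1 function. Anti-GFP chromatin immunoprecipitation (ChIP-seq) and Input libraries came from the induced line. Seedlings of both genotypes were 10 days old, received 5 ml of 10 uM estradiol on the plate, and were harvested 5 h later. Estradiol itself is therefore shared by both RNA groups, and an induced line without estradiol was not analysed here. The labels used here do not name the promoter that drives the fusion or the number of seedlings pooled per library, nor do they say whether the replicates came from separate cultures. They also do not give the background into which the fusion was transformed, so the fusion and any other difference between the lines cannot be told apart. The p-values below measure the spread between these libraries, which may be technical.

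BRC1 belongs to class II of the TCP family, plant factors that bind short GC-rich DNA motifs. In axillary buds it is known for holding back bud outgrowth, and part of that response runs through abscisic acid (ABA), the hormone of drought and dormancy. ABA is perceived by soluble receptors that inhibit clade A PP2C phosphatases, which frees SnRK2 kinases to activate bZIP factors such as ABI5, and it is broken down by the CYP707A hydroxylases. BRC1 RNA, which checks the labels, was 3370, 3421 and 3625 FPKM in the 3 induced libraries, against 1.34, 1.66 and 2.2 FPKM in the 3 brc1-2 libraries (FPKM counts fragments per length of transcript and depth of library). This is a log2 fold change of 10.32 (SE 0.12, limma adjusted p = 1.79e-06). The tables do not separate transgene from endogenous RNA. No peak midpoint lay inside the BRC1 locus. The RNA libraries listed 20566 to 21555 genes each. Derived fragments, estimated from the confidence bounds of the FPKM and not counted from reads, numbered between 33176994 and 53385759 per library.

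The peak list gives start and end positions only, as the intersection of anti-GFP samples 1 and 2, with no height, score or p-value. A peak's width is therefore its only measured property, and agreement between ChIP replicates could not be examined. Because the list is an intersection, a listed width may be only the stretch shared by the peaks of samples 1 and 2. Widths in the list went down to 1 bp, and all widths below are those of the listed intervals. Loci run over the whole gene model and carry no strand, so the start of a gene cannot be told from its end, nor an exon from an intron. Position is given as the distance from the midpoint to the nearer end of the locus. Where loci overlap, or a gene has an antisense partner, the host is uncertain. Of the 627 peaks, 621 lay in 1 locus and 6 in 2, which gives 633 pairs of peak and locus. 617 peaks lay in annotated loci and 10 only in assembled rows that carry no gene identifier of their own. The annotated loci belong to 589 host genes, of which 567 held 1 midpoint, 17 held 2 and 5 held 3 or more.

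Peaks inside loci were spread over all 5 chromosomes. They made up 173 of 1104 peaks (15.7%) on chromosome 1, 107 of 672 (15.9%) on chromosome 2, 111 of 843 (13.2%) on chromosome 3, 86 of 642 (13.4%) on chromosome 4 and 150 of 966 (15.5%) on chromosome 5. Protein-coding genes were 532 of the 589 hosts (90.3%), against 26369 of the 32883 annotated loci (80.2%). Pseudogenes were 2 of the hosts (0.34%), against 3897 loci (11.9%). 10 hosts were ncRNA genes, 8 lncRNA genes, 2 rRNA genes and 1 a tRNA gene, and 29 were not found in the gene table. Host loci had a median length of 2260 bp (quartiles 1462 and 3444), against 1840 bp for all annotated loci, and a longer locus has more room for a midpoint.

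Peaks inside loci had a median width of 382 bp (quartiles 316.5 and 460, 95% order-statistic interval of the median 367 to 392). Peaks outside loci had a median of 401 bp (396 to 407). Peaks 1 to 500 bp from a locus had a median of 390 bp, those at 501 to 1000 bp 422 bp, and those beyond 1000 bp 410 bp. The widths inside loci thus overlapped those of the peaks just outside and were narrower in the median than those farther away, with no test made of that difference. Within loci, peaks that lay wholly in the locus had a median of 374 bp (n = 333) and those that ran past its end 386 bp (n = 294). Only 12 of the 627 were under 200 bp and 7 over 1000 bp.

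**Figure D1:**
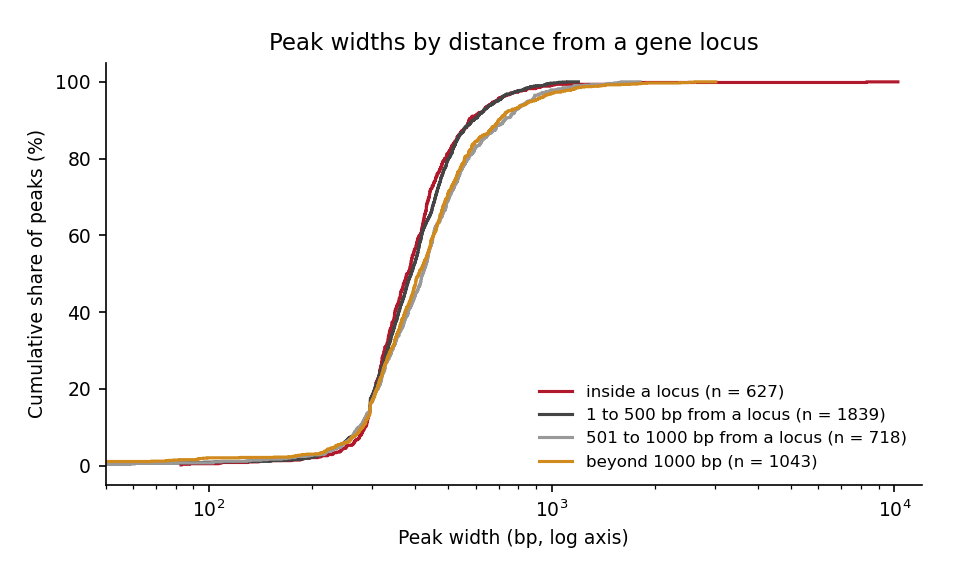
Cumulative share of peaks (percent) against peak width (bp, log axis) for 627 peaks inside a locus and for those 1 to 500 bp, 501 to 1000 bp and beyond 1000 bp from a locus. Between the quartiles, the curve of the peaks inside loci runs beside that of the peaks within 500 bp and left of the other curves. Under 200 bp lie 1.91% of the peaks inside loci, against 2.51% at 501 to 1000 bp and 2.88% beyond 1000 bp. Only the curve of the peaks inside loci reaches past 3011 bp. Peaks under 50 bp count in the curves but lie left of the axis.

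The extremes of width were few and unlike the rest. The widest peak, of 10233 bp on chromosome 3 from 14194725 to 14204957, covered the whole 164 bp locus of AT3G41979, an rRNA gene. The next, of 8288 bp on chromosome 2 from 1234 to 9521, had its midpoint in AT2G01010, another rRNA gene. Their RNA was far apart within groups: AT3G41979 had 3006, 2258 and 3376 FPKM in induced libraries 1 to 3, against 2901, 1359 and 5007 FPKM in brc1-2 libraries 1 to 3, and the groups overlapped. rRNA genes are repeated many times in the genome, so their reads can be shared between copies and both values are uncertain. The third widest peak, of 1754 bp, began before the locus of ATBFRUCT1, a cell wall invertase that splits sucrose, and is described with the rises below. The narrowest peaks, of 83, 88 and 107 bp, lay in AT3G57800, PLA2A (a patatin-type lipid hydrolase) and PABN1 (a nuclear poly(A)-binding protein), and none of these hosts passed the test.

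Midpoints gathered near the ends of loci. Over the 622 pairs with annotated loci, the median distance to the nearer end was 226.5 bp (quartiles 61.25 and 794.75, highest 4534), or 17.4% of the locus length. The outermost 10% at either end, together 20% of the locus, held 250 midpoints (40.2%). The next 4 steps towards the centre, each again 20% of the length, held 90 (14.5%), 97 (15.6%), 86 (13.8%) and 99 (15.9%), so farther in the midpoints lay about evenly. In loci of at least 2000 bp the outermost 10% held 44.6% of 381 midpoints, and in shorter loci 33.2% of 241. The median position counted from the low-coordinate end was 0.526 of the length, so neither coordinate end held most midpoints.

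**Figure D2:**
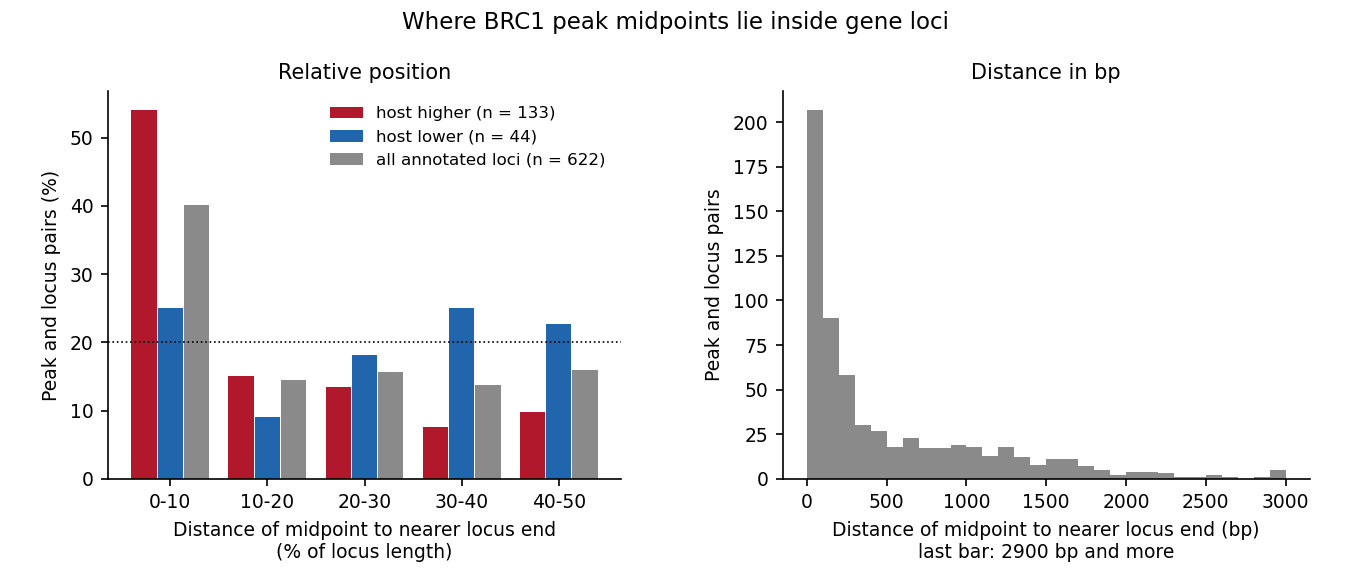
Left, share of peak and locus pairs (percent) by distance of the midpoint to the nearer locus end (percent of locus length), for pairs whose host was higher (n = 133), pairs whose host was lower (n = 44) and all annotated pairs (n = 622). The dotted line marks 20%, the share of locus length in each step. Right, number of pairs by the same distance in bp. The outer step holds 54.1% of pairs with a higher host, 25% of those with a lower host and 40.2% of all.

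The boundary of the rule cuts through a dense stretch of peaks. Just inside it, the midpoints in AT3G01590 and AT3G50764 lay 0 bp from the edge and those in TMK1 (a receptor kinase of auxin signalling) and AGL20 (the flowering regulator SOC1) 1 bp. Just outside, 4 midpoints lay 1, 2, 2 and 3 bp away. Within 50 bp of an edge there were 133 pairs inside and 181 peaks outside, and within 100 bp 209 and 431. Many peaks also straddle the edge: 327 of the 622 annotated pairs (52.6%) had the whole peak within the locus, 295 ran past an end, and 44 covered the locus entirely. All 44 of those covered loci were under 2000 bp.

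Of the 589 hosts, 512 (86.9%) were listed with RNA in at least 1 of the 6 RNA libraries, against 65.9% of all annotated loci. 77 were not listed, and of 44 hosts with loci under 250 bp only 2 were listed. 503 hosts passed the filter of 1 FPKM in at least 3 libraries. Among all 21038 genes tested with limma, 3413 (16.2%) differed between the induced line and brc1-2 at a Benjamini-Hochberg adjusted p under 0.05, 1550 of them higher in the induced line (7.37%) and 1863 lower (8.86%). Among the 503 tested hosts, 129 were higher (25.6%) and 41 lower (8.15%), and the induced and brc1-2 libraries did not overlap in any of these 170. The same held for all 3413 called genes, so a lack of overlap adds no support to a call here. Groups without overlap were found in 274 of 503 tested hosts (54.5%) and in 8181 of 21038 tested genes (38.9%). Rises of at least 2-fold numbered 48 among hosts (9.54%), against 1.64% of all tested genes, and falls of at least 2-fold numbered 6 (1.19%), against 2.86%. The median log2 fold change was 0.14 over hosts (quartiles -0.19 and 0.53) and 0.04 over all tested genes. It was above 0 in 329 hosts (65.4%) and in 55.6% of all tested genes. The median FPKM was 18.6 over tested hosts and 14.1 over all tested genes. The seedlings were sampled whole, so fewer cells of a type and less RNA per cell cannot be told apart in any of these values.

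Hosts can also be set beside genes with peaks nearby. For genes that were no host, only midpoints outside every locus were counted as nearby. Genes with such a midpoint within 1000 bp and none inside were higher in 538 of 2694 tested (20%) and lower in 239 (8.87%). Genes with neither were higher in 869 of 17489 (4.97%) and lower in 1546 (8.84%). This last class can hold genes whose only nearby midpoint lay inside another locus. 128 hosts had a second peak within 1000 bp outside their own locus, whether or not it lay in another. Without them, 85 of 387 tested hosts were higher (22%) and 35 lower (9.04%), and with such a peak 44 of 116 were higher (37.9%) and 6 lower (5.17%). The differences between these classes of genes were not tested.

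The shares of higher and lower hosts were counted by depth in the locus, with no test between depths. Hosts with a midpoint up to 100 bp from an end were higher in 52 of 154 tested (33.8%) and lower in 7 (4.55%), with a median log2 fold change of 0.24. At 101 to 250 bp, 26 of 112 were higher (23.2%) and 6 lower (5.36%), and at 251 to 500 bp 21 of 67 were higher (31.3%) and 6 lower (8.96%). At 501 to 1000 bp, 15 of 81 were higher (18.5%) and 6 lower (7.41%). Beyond 1000 bp, 15 of 89 were higher (16.9%) and 16 lower (18%), with a median of 0.05. A host with several midpoints was placed here by the one nearest an end. The median FPKM of the tested hosts was 29.2, 22.8, 11.3, 16.3 and 13.1, from the outermost class to the deepest. The part of expression level in these shares was not tested.

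Seen from the calls, pairs with a higher host had a median distance of 160 bp, against 688.5 bp for pairs with a lower host and 247 bp for pairs with a host not called. The whole peak lay in the locus in 45.1% of pairs with a higher host, 75% of those with a lower host and 58.1% of those with a host not called. The median width was 394 bp beside a higher host (95% interval 363 to 428), 341.5 bp beside a lower host (326 to 359) and 377 bp beside one not called (350 to 391). Over all tested genes with a locus of at least 2000 bp, with or without a peak, 7.42% were higher and 7.45% lower. Among hosts beyond 1000 bp that had no second peak beside the locus, the RNA was higher in 10 and lower in 15 of 73 tested. The 16 falls beyond 1000 bp became 8 without induced library 1 and 9 without induced library 2, and 7 falls within 100 bp became 4 without induced library 1, 2 or 3.

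**Figure D3:**
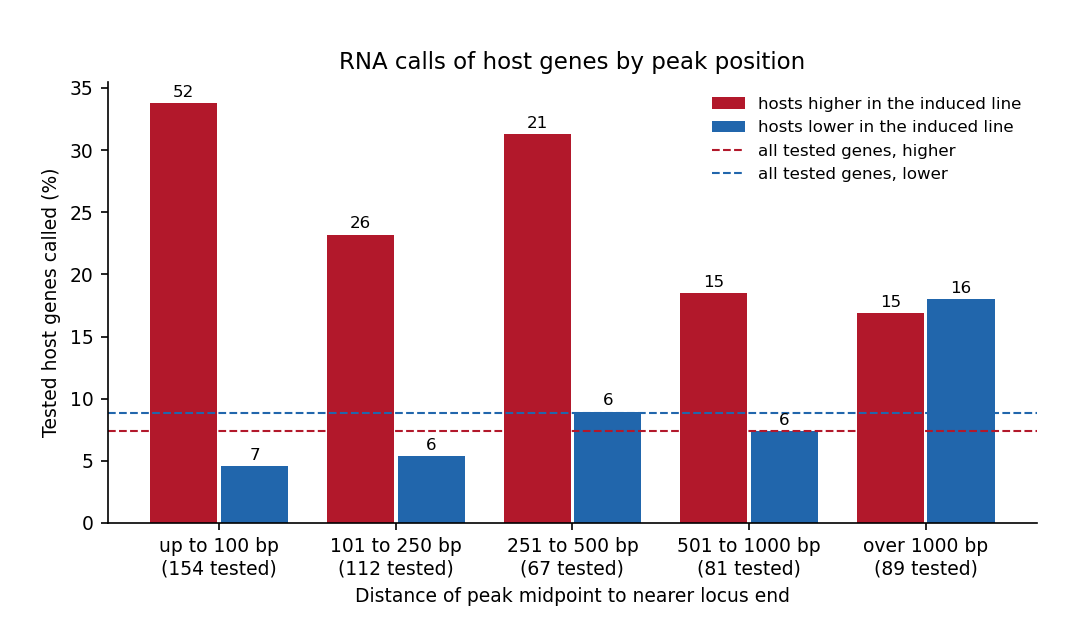
Share of tested host genes (percent) called higher or lower in the induced line against brc1-2, by distance of the peak midpoint to the nearer locus end, with the number called above each bar. Dashed lines give the shares over all 21038 tested genes, 7.37% higher and 8.86% lower. The share of higher hosts is 33.8% up to 100 bp and 16.9% beyond 1000 bp, and the share of lower hosts is 4.55% and 18%.

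Of the 10 hosts named for the largest rises, PIMT2, a methyltransferase that repairs damaged aspartyl residues in proteins, had 20.5, 24.9 and 22.4 FPKM in induced libraries and 1.90, 2.64 and 1.66 FPKM in brc1-2 libraries. No induced library came near the brc1-2 range, with a log2 fold change of 2.95 (SE 0.14, limma adjusted p = 0.000353). Its peak, of 389 bp on chromosome 5 from 20451123 to 20451511, straddled the low-coordinate end, with the midpoint 89 bp into a locus of 1342 bp. ST2A, a sulfotransferase acting on hydroxylated jasmonate, had 39.3, 39 and 43.9 FPKM in induced libraries and 5.56, 5.20 and 4.22 FPKM in brc1-2 libraries (log2 fold change 2.80, SE 0.11, limma adjusted p = 0.000236). Its peak of 342 bp lay wholly inside, 278 bp from the low end of a locus of 1429 bp, and it had a second peak beside the locus.

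TT7, the flavonoid 3'-hydroxylase that sets the hydroxylation of flavonols and anthocyanins, showed a rise with a peak deep in the gene. It had 52.3, 48.8 and 43.2 FPKM in induced libraries and 7.4, 7.69 and 7.4 FPKM in brc1-2 libraries, a log2 fold change of 2.53 (SE 0.08, limma adjusted p = 0.000186). The 3 brc1-2 values lay close together, far below every induced value. Its peak of 295 bp, on chromosome 5 from 2561385 to 2561679, lay 1138 bp from the low end and 1577 bp from the high end. No other peak lay inside the locus or within 1000 bp of it. TPPI, a trehalose-6-phosphate phosphatase named after its values were seen, likewise had its only peak 1125 bp from the nearer end. It had 10.5, 8.33 and 8.90 FPKM in induced libraries and 2.81, 2.87 and 1.96 FPKM in brc1-2 libraries (log2 fold change 1.54, limma adjusted p = 0.00271).

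AT1G26290 had 23.0, 26.6 and 19.0 FPKM in induced libraries and 2.39, 2.59 and 2.25 FPKM in brc1-2 libraries, a log2 fold change of 2.79 (limma adjusted p = 0.000353). The midpoint of its 441 bp peak, 33 bp into the locus, also lay inside AT1G26300, whose log2 fold change of 0.14 did not pass the test. MES5, of the methyl esterase family, had a peak of 313 bp near the middle of its locus, 644 and 609 bp from the ends, a second peak beside the locus, and a log2 fold change of 2.37 (limma adjusted p = 0.000408). AT4G28150, with a log2 fold change of 2.43, and AT2G28140, with 2.17, held midpoints 420 and 13 bp from the nearer end, and AT2G28140 also had a peak beside the locus. AT2G27420, with 2.29, was not listed in brc1-2 library 3. AIR12, a membrane-bound cytochrome first found as auxin-induced in roots, had 163, 199 and 171 FPKM in induced libraries and 43.2, 50.3 and 39 FPKM in brc1-2 libraries, a log2 fold change of 1.99 (limma adjusted p = 0.000755). ATBFRUCT1, host of the widest peak outside rRNA genes, had 255, 253 and 283 FPKM in induced libraries and 69.8, 72.7 and 92.1 FPKM in brc1-2 libraries. The gene rose by a log2 fold change of 1.75 (SE 0.12, limma adjusted p = 0.00103), and a second peak lay beside the locus.

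**Figure D4:**
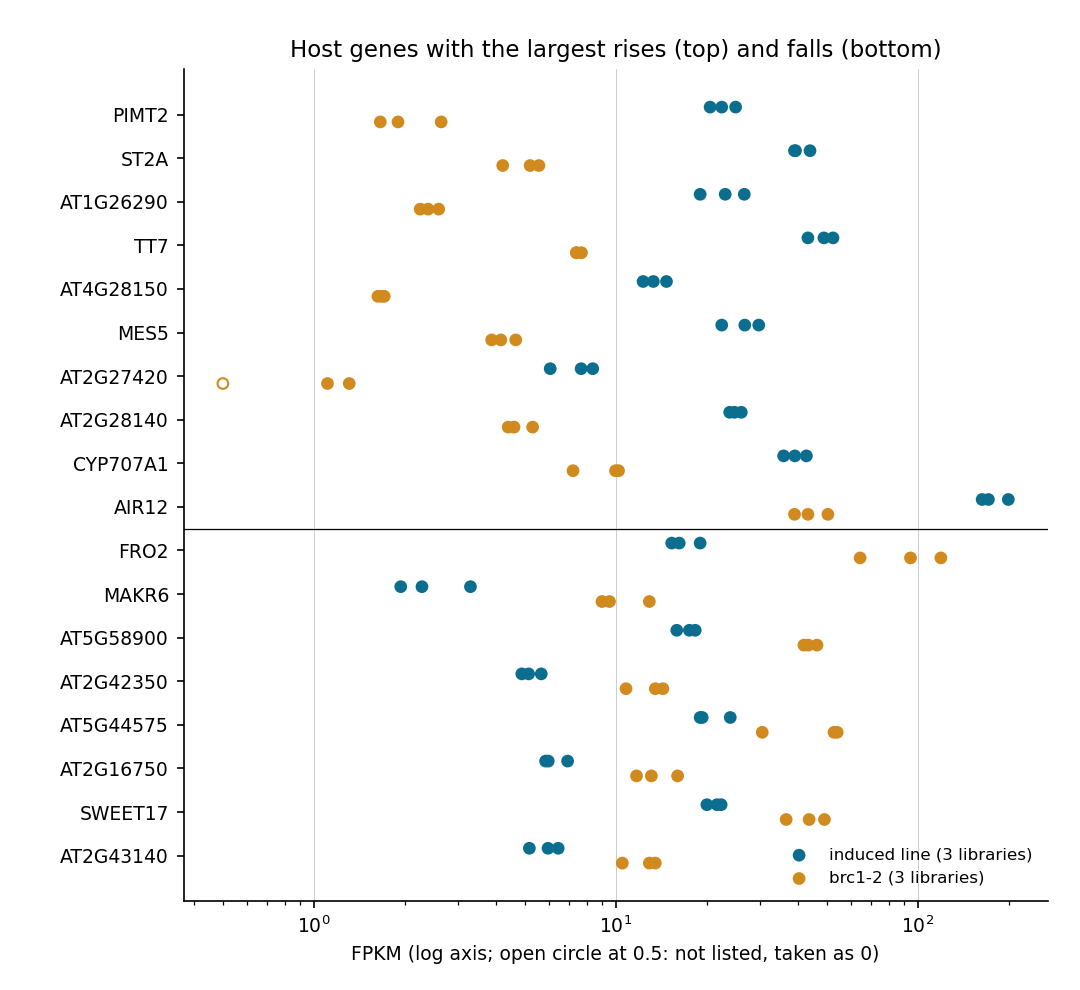
FPKM (log axis) in each of 3 induced and 3 brc1-2 libraries for the 10 host genes with the largest rises (top) and the 8 with the largest falls (bottom). The groups do not overlap for any of these genes, as the rule required. The open circle marks AT2G27420 in brc1-2 library 3, where it was not listed.

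Among 129 genes in 12 lists of ABA, bud dormancy, TCP, clock, auxin and replication genes, 10 were hosts. A further 46 had none inside but a midpoint within 1000 bp that lay outside every locus. 9 of the 10 hosts were tested, 5 were higher and none lower. Over all 116 tested genes of the lists, 32 were higher and 14 lower. For comparison, 7.37% of all 21038 tested genes were higher and 8.86% lower, and of tested hosts 25.6% and 8.15%. The single lists below are small, and their counts were not tested against these shares.

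Both ABA breakdown enzymes among the hosts were higher. CYP707A1, an ABA 8'-hydroxylase, had 39.1, 35.9 and 42.7 FPKM in induced libraries and 10.2, 7.21 and 9.97 FPKM in brc1-2 libraries, a log2 fold change of 2.00 (SE 0.14, limma adjusted p = 0.00107). Its peak lay wholly inside, 473 bp from the high end, and a second peak lay beside the locus. CYP707A2, a hydroxylase of the same kind, held 2 midpoints, 1115 and 2619 bp from the low end of a locus of 4873 bp, and had a further peak beside it. It had 11.5, 8.38 and 10.4 FPKM in induced libraries and 3.23, 3.25 and 3.83 FPKM in brc1-2 libraries (log2 fold change 1.31, limma adjusted p = 0.00302). In both genes every induced value was above every brc1-2 value, as in every gene called higher. NCED9, on the synthesis side, held a midpoint 6 bp from its end and was not listed in any library. Of the 13 genes for ABA synthesis and breakdown, 4 of 9 tested were higher and none lower, with a median log2 fold change of 0.55.

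On the signalling side, HAI1, a clade A PP2C phosphatase that restrains ABA signalling, had 7.76, 8.33 and 6.92 FPKM in induced libraries and 3.15, 1.77 and 0.881 FPKM in brc1-2 libraries. The brc1-2 libraries were spread widely and, as in every gene called higher, stayed below the induced ones. The log2 fold change was 1.63 (limma adjusted p = 0.0159). That call was lost without induced library 1 or 2 or brc1-2 library 2 (limma adjusted p = 0.0653, 0.0664 and 0.0521). ABI5, the bZIP factor of seed ABA responses, had 5.77, 6.30 and 5.89 FPKM in induced libraries and 2.58, 2.35 and 1.99 FPKM in brc1-2 libraries (log2 fold change 1.08, limma adjusted p = 0.0038). Its peak lay 664 bp from the high end, and a second peak lay beside the locus. ABF4, a related bZIP factor, held a midpoint 9 bp into its locus and had 16.4, 15.7 and 15.6 FPKM in induced libraries and 18.5, 17.2 and 17.7 FPKM in brc1-2 libraries. The log2 fold change of -0.15 did not pass the test (limma adjusted p = 0.15).

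Of the PP2C list, 4 of 6 tested genes were higher and none lower, and of the 8 ABF, ABI5 and GBF genes 4 were higher and none lower. The 9 ABA receptors had no host, and 5 were lower and none higher. The 3 SnRK2 kinases had no host and no midpoint outside loci within 1000 bp, and 1 was lower. The dehydration list had 10 of 16 genes higher and none lower. Among them, the dehydrin gene ERD10 was a host with 565, 679 and 547 FPKM in induced libraries and 170, 166 and 163 FPKM in brc1-2 libraries (log2 fold change 1.83, limma adjusted p = 0.000528). Its peak lay wholly inside, 386 bp from the high end, and a second peak lay beside the locus. ERD14, a dehydrin of the same group, held a midpoint 41 bp from its end, had a second peak beside the locus and had a log2 fold change of 0.20 (limma adjusted p = 0.377).

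HB53, an HD-ZIP factor of bud dormancy, held a midpoint near the centre of its locus. It had 2.70, 2.27 and 1.62 FPKM in induced libraries, and 2.15 FPKM in brc1-2 library 1 with no listing in brc1-2 libraries 2 and 3, so the groups overlapped. The log2 fold change was 1.11 (limma adjusted p = 0.206), and without brc1-2 library 1 it was 1.66 (limma adjusted p = 0.0366). On derived fragments, voom gave a log2 fold change of 5.00 (limma adjusted p = 0.0357). Of the 3 tested genes of that list, 1 was higher. AUX1, an auxin influx carrier, was the only host among 17 Aux/IAA and auxin carrier genes and had a log2 fold change of 0.10 (limma adjusted p = 0.634), while 5 of 16 tested genes of that list were lower and none higher. The TCP, clock and replication lists held no host. In them, 2 of 9 tested class II TCP genes were higher and none lower, 3 of 12 class I TCP genes were higher and 2 lower, 1 of 13 clock genes was higher and 1 lower, and 3 of 12 replication genes were higher and none lower.

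The falls were fewer and smaller. FRO2, the ferric reductase of root iron uptake, had 19.0, 16.2 and 15.3 FPKM in induced libraries and 64.3, 94.4 and 119 FPKM in brc1-2 libraries. The brc1-2 libraries varied far more than the induced ones but did not overlap with them, with a log2 fold change of -2.35 (SE 0.23, limma adjusted p = 0.00254). Its peak, of 341 bp on chromosome 1 from 210704 to 211044, lay 1479 bp from the low end and 2167 bp from the high end. Some markers of root tissue were lower too. The 6 root markers summed to between 85.5 and 101 FPKM in induced libraries and between 333 and 458 FPKM in brc1-2 libraries, none was at 0, 3 were lower (EXPA7, PHT1;1 and IRT1) and none was higher. IRT1, an iron transporter, and PHT1;1, a phosphate transporter, made up most of these sums. SHV2, SCR and TIP2;3 did not pass the test, and SCR had a log2 fold change of 0.07. SHV2 was called lower under length-weighted pieces (log2 fold change -0.92, limma adjusted p = 0.0345) and voom (-2.25, limma adjusted p = 0.0237). TIP2;3 was called lower under voom (log2 fold change -2.13, limma adjusted p = 0.0267). The 4 shoot markers summed to between 21998 and 26177 FPKM in induced libraries and between 20696 and 29182 FPKM in brc1-2 libraries, none was at 0, and 1 was lower. The part of root tissue in the falls of host genes was not tested.

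MAKR6, of a family of membrane-associated kinase regulators, had 1.94, 3.30 and 2.28 FPKM in induced libraries and 12.9, 9.52 and 8.99 FPKM in brc1-2 libraries, a log2 fold change of -1.71 (limma adjusted p = 0.00428), with a second peak beside the locus. AT5G58900 had 18.3, 15.9 and 17.5 FPKM in induced libraries and 46.3, 41.9 and 43.3 FPKM in brc1-2 libraries, a log2 fold change of -1.30 (limma adjusted p = 0.000628). In neither gene did an induced library reach the brc1-2 range, as the rule for named falls required. SWEET17, a vacuolar fructose transporter, had 20, 21.6 and 22.3 FPKM in induced libraries and 43.6, 36.6 and 49.0 FPKM in brc1-2 libraries (log2 fold change -0.98, limma adjusted p = 0.0046). Its peak of 567 bp lay 494 bp from the low end. The other named falls were AT2G42350 with a log2 fold change of -1.15, AT2G16750 with -1.0, AT2G43140 with -0.96 and AT5G44575 with -1.07. The call of AT5G44575 (limma adjusted p = 0.0311) was lost without any induced library and without brc1-2 library 2 or 3 (limma adjusted p between 0.07 and 0.107).

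Both NADPH oxidases RBOH F and RBOHD, which make the reactive oxygen of stress and defence signalling, were hosts of deep peaks. RBOH F had a midpoint near the exact centre of a 7158 bp locus, 3576 and 3581 bp from its ends. It had 5.70, 4.44 and 5.61 FPKM in induced libraries and 11, 9.82 and 10.6 FPKM in brc1-2 libraries (log2 fold change -0.88, limma adjusted p = 0.00537). RBOHD, named after its values were seen, had a midpoint 1768 bp from the low end. It had 15.9, 16.6 and 21.1 FPKM in induced libraries and 27.8, 33.4 and 38.2 FPKM in brc1-2 libraries (log2 fold change -0.85, limma adjusted p = 0.0163). In neither gene did the groups overlap, as in every called gene. The RBOHD call was lost without induced library 1 or 2 or brc1-2 library 2 (limma adjusted p = 0.0654, 0.0664 and 0.0558). The other central peaks lay in TET2, a tetraspanin, and AT1G80610, whose log2 fold changes of -0.16 and -0.09 did not pass the test.

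The 22 hosts with 2 or more midpoints, of which AT3G44610 and those with 2 other than CYP707A2 and AT1G80610 were named after their values were seen, included 18 tested, 3 of them higher and 3 lower (16.7% each), against 25.6% and 8.15% of all tested hosts. Their median log2 fold change was -0.03, against 0.14 over all tested hosts. The most crowded were not listed in any RNA library. AT2G08986, on chromosome 2 from 3618058 to 3626460, held 8 midpoints, and its neighbour AT2G07981, from 3614986 to 3617716, held 3. AT1G40104 held 4 and was not listed either. Whether reads at these loci are shared with copies elsewhere in the genome was not examined. AT1G79120 held 3 and had a log2 fold change of 0.13 (limma adjusted p = 0.831), and AT3G44610 held 3 and rose, with a log2 fold change of 0.71 (limma adjusted p = 0.00793).

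Of the hosts with 2 midpoints, NRT1.1, the nitrate transporter and sensor, had 65.5, 67.4 and 94.6 FPKM in induced libraries and 119, 110 and 148 FPKM in brc1-2 libraries. Library 3 was the highest of each genotype, and the groups did not overlap, as in every called gene (log2 fold change -0.73, limma adjusted p = 0.0437). That call was lost without any library other than induced library 3 (limma adjusted p between 0.0709 and 0.14) and under upper quartile scaling (limma adjusted p = 0.0526). Its peaks, of 703 and 575 bp, lay 1995 and 2707 bp from the low end, with 1605 bp from the second to the high end. LOG7, a cytokinin-activating enzyme, had 7.99, 8.29 and 9.04 FPKM in induced libraries and 17.4, 14.3 and 17.9 FPKM in brc1-2 libraries (log2 fold change -0.89, limma adjusted p = 0.00462). Its midpoints lay 1590 and 2524 bp from the low end of 3627 bp. The cytokinin oxidases CKX5 and CKX7 also held 2 midpoints each and had log2 fold changes of 0.80 (limma adjusted p = 0.512) and 0.01 (limma adjusted p = 0.983). CKX5 was called higher under length-weighted pieces (limma adjusted p = 0.0151) and voom (limma adjusted p = 0.000176). PIP2E, an aquaporin, had 343, 309 and 336 FPKM in induced libraries and 214, 213 and 213 FPKM in brc1-2 libraries (log2 fold change 0.62, limma adjusted p = 0.00413).

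**Figure D5:**
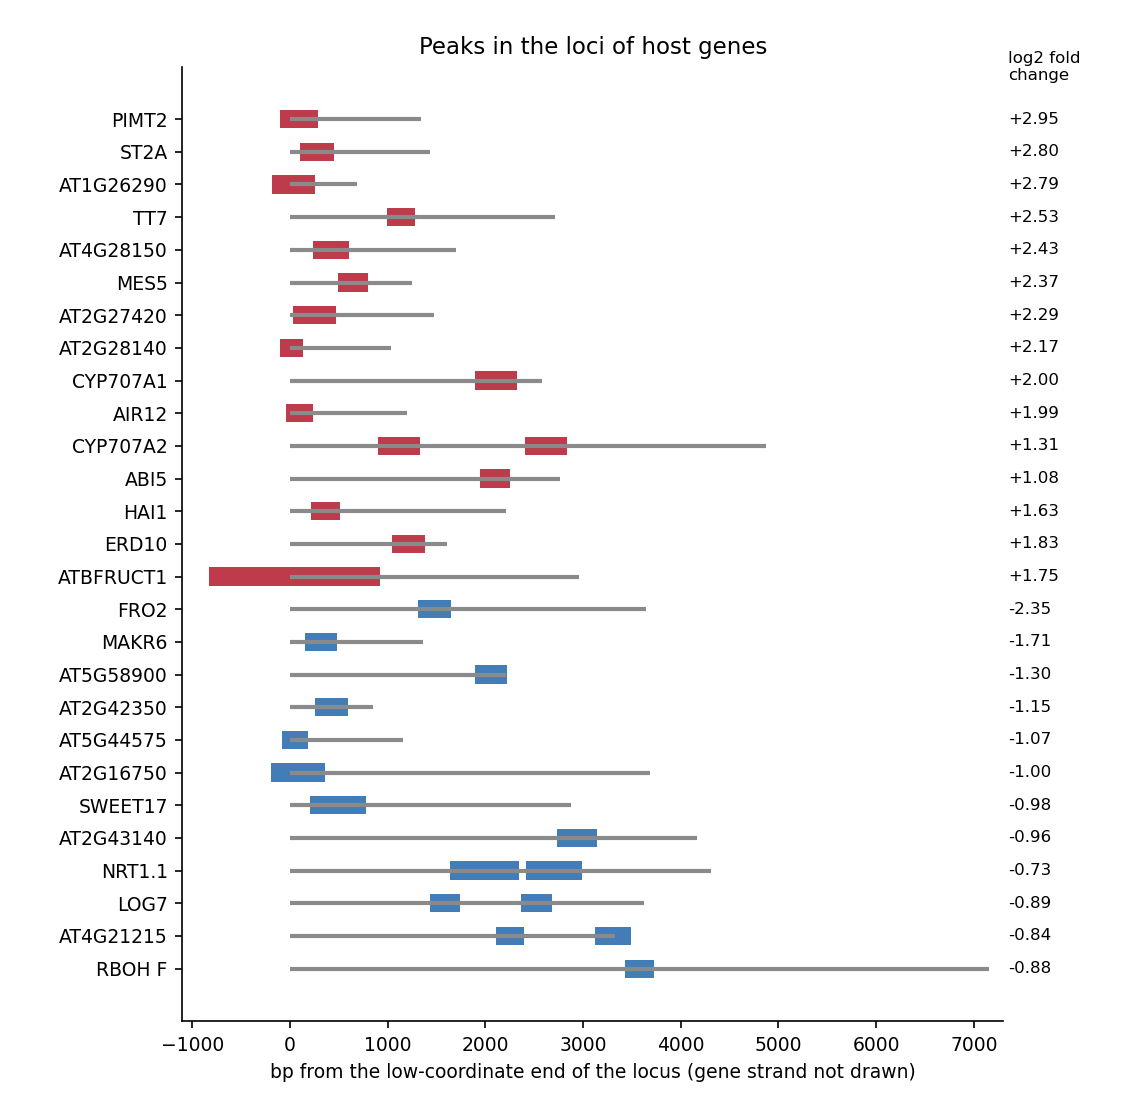
Peaks (boxes, red where the host was higher in the induced line, blue where lower) over the locus of each host (grey line), in bp from the low-coordinate end, with the host's log2 fold change at right. The gene's strand is not drawn. Midpoints in TT7, CYP707A2, FRO2, LOG7 and RBOH F lie more than 1000 bp from both ends, while the peaks of PIMT2, AT1G26290 and AT2G16750 straddle an end.

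A midpoint inside a locus can also lie close to another gene. The nearest other locus was within 500 bp of the midpoint in 119 of the 622 annotated pairs and within 1000 bp in 223, with a median distance of 1504 bp, and in 31 pairs that neighbour was closer than either end of the host. Among the 119, the neighbour was higher in 17, and in 11 of those the host was not called. Neighbours within 500 bp that were themselves no host were higher in 14 of 97 tested (14.4%) and lower in 4 (4.12%). Neighbours beyond 1000 bp, likewise no host, were higher in 22 of 253 (8.7%) and lower in 27 (10.7%). Over all 21038 tested genes, 7.37% were higher and 8.86% lower, and the differences were not tested.

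A pair of such neighbours, named after their values were seen, show the ambiguity. The peak in the lncRNA gene AT2G45685, 182 bp from the high end of its locus, lay 113 bp from TCP9, a class I TCP factor. TCP9 had 19.4, 21.9 and 22.1 FPKM in induced libraries and 5.69, 5.96 and 7.10 FPKM in brc1-2 libraries (log2 fold change 1.61, limma adjusted p = 0.000775), and the lncRNA host rose too, with a log2 fold change of 1.33. The peak in APC11, 152 bp from its high end, lay 18 bp from RCI2A, a small membrane protein of cold and dehydration responses. RCI2A had 933, 1040 and 998 FPKM in induced libraries and 634, 581 and 689 FPKM in brc1-2 libraries (log2 fold change 0.64, limma adjusted p = 0.012), while APC11 had a log2 fold change of 0.07 that did not pass the test. The RCI2A call was lost without induced library 2 or 3 (limma adjusted p = 0.0526 and 0.0508).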

How the data were processed

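RNA values are the FPKM that the authors deposited, whose columns are those of Cufflinks output per the file headers. Bowtie, TopHat, Cuffdiff, Bowtie2, MACS2 and the build TAIR10 are named in the submitters' processing notes, and which tool made which file is not given in the sources used here. The deposited peak list gives chromosome, start and end only, one list for anti-GFP samples 1 and 2 together, so it holds no replicate spread. The required overlap and the peak threshold are not given in the sources used here. Anti-GFP library 3 and all Input samples were not analysed here.

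FPKM of all assembled pieces of a gene was summed, a gene not listed in a library was taken as 0, and a gene was tested if 3 or more of the 6 libraries had 1 FPKM or more, which 21038 of 22028 did. A limma 3.58.1 model (R 4.3.3, lmFit, eBayes with a trend, no covariate) was fitted to log2(FPKM + 1), and p-values were adjusted over all tested genes at a threshold of 0.05. Fold changes on this scale understate the change of low genes. A midpoint was (start + end)//2, and loci are those of the same tables, assumed to share the build of the peaks. Symbols and gene classes came from RefSeq (assembly TAIR10.1), where 560 of the 589 hosts were found, and none of its coordinates were used. Medians carry 95% binomial order-statistic intervals. Joins used Python 3.11.15 with pandas 2.3.3, and both the join and the fit were tested on simulated data.

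Genes named are the 10 largest rises and 8 largest falls among called, non-overlapping hosts with a mean of at least 5 FPKM in the higher group, hosts in the gene lists, hosts of the 3 widest and 3 narrowest peaks, up to 4 hosts with the most midpoints, the 3 hosts with the highest FPKM, the 3 most central peaks in loci of at least 2000 bp, the 4 midpoints on either side of the boundary, and BRC1. The peaks, the lists and this rule were chosen with earlier results of these data known. No sequence is shown. The labels give samples with the same number across genotypes no other link, and do not say whether the numbers mark a batch.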

Additional observations from a re-analysis of the deposited data

How the results depend on the processing

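Leaving out 1 RNA library at a time gave 1609 to 2827 changed genes (3413 with all), 97 to 125 higher hosts (129 with all) and 18 to 33 lower hosts (41 with all). The lower hosts numbered 18, 20 and 27 without induced library 1, 2 and 3. In these fits 19.4% to 24.9% of tested hosts were higher, against 3.43% to 6.53% of all tested genes, and 3.6% to 6.56% were lower, against 4.27% to 7.1%. Other pseudocounts, filters, scalings, piece weights, voom and the replicate block gave 117 to 154 higher and 36 to 60 lower hosts.

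The choice of member peaks moved the counts more. Peaks wholly inside a locus numbered 333, with a median position 28.9% from the nearer end. Of their 277 tested hosts, 56 were higher (20.2%) and 31 lower (11.2%), against 25.6% and 8.15% of all tested hosts. With any base in a locus there were 1651 peaks of median width 404 bp. Of their 1514 tested hosts, 448 were higher (29.6%) and 103 lower (6.8%). Peaks at or above the median width numbered 277, with a median of 478 bp. Of their 217 tested hosts, 63 were higher (29%) and 10 lower (4.61%). Without hosts that had a second peak beside the locus, an alternative added after seeing the data, 85 of 387 were higher (22%) and 35 lower (9.04%). These alternatives change which peaks or hosts are counted.

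With the replicate block 2989 genes changed, 117 hosts were higher and 36 lower. Same-numbered libraries correlated at 0.0824, 0.0597 and 0.193 in their deviations from the group means. Libraries of different number correlated between -0.223 and 0.145. With so few libraries, these values cannot decide whether the numbers mark a pairing. Over 68 named genes and 945 comparisons with an alternative, 887 kept direction and side of the threshold, 19 lost the call, 10 gained it and 29 changed sign. The changes of sign were in 12 genes that passed the threshold neither with all libraries nor in the changed fit. Leaving out 1 library gave log2 fold changes between -0.01 and 0.20 for AUX1, -0.42 and 0.52 for AT3G41979, -0.73 and 0.19 for AT2G01010, -0.40 and 0.47 for AT3G57800, -1.25 and 0.18 for PLA2A, -0.15 and 0.37 for AT1G79120, -0.57 and 0.44 for AT4G06477, -0.48 and 0.09 for KNAT2, -0.12 and 0.20 for CKX7, -0.43 and 0.03 for TDT, -0.16 and 0.02 for CAB1, and -0.01 and 0.15 for SCR. Voom gave 0.17 for AT4G06477, 0.42 for KNAT2 and -0.03 for CKX7, and upper quartile scaling gave -0.03 for CKX7 and -0.00 for AT3G57800. The cause was not tested. With 3 libraries a group, small changes may be missed, and peak height could not be used because the list holds none.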

Other observations

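The 3 hosts with the highest FPKM were AT3G41979, an rRNA gene described above, PRXR1, a peroxidase, and AT4G06477. PRXR1 had a log2 fold change of 0.07 (limma adjusted p = 0.64) with a midpoint 827 bp from the low end of a 2289 bp locus. AT4G06477 had -0.00 (limma adjusted p = 0.998) with a midpoint 177 bp from the low end. It had 411, 731 and 1442 FPKM in induced libraries and 932, 344 and 1357 FPKM in brc1-2 libraries. These rested on only 27 to 317 derived fragments per library, against 42300 to 70458 for PRXR1, so the rank of AT4G06477 is uncertain. None of the 3 passed the test.

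Among the 17 hosts with 2 midpoints, the remaining genes with known roles did not pass the test. They were KNAT2, a KNOX homeobox factor of the shoot meristem, with a log2 fold change of -0.26, BLH2, a BELL homeobox factor, with 0.26, ACS2, an ethylene synthesis enzyme, with -1.0, GAD, a glutamate decarboxylase, with -0.49, HSFB2A, a heat shock factor, with 0.46, and TDT, the tonoplast dicarboxylate transporter, with -0.23. The ACS2 call was gained without induced library 3 (limma adjusted p = 0.0346), that of GAD under voom (limma adjusted p = 0.0319) and that of HSFB2A with the replicate block (limma adjusted p = 0.0425). AT4G21215, with midpoints 2254 bp from the low end and 14 bp from the high end, fell, with a log2 fold change of -0.84 (limma adjusted p = 0.00514).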
